A study of Rattus norvegicus with 48 samples.

Results

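The genes described here are 9 enzymes of phase 1 metabolism in rat lung, taken by symbol from a list of lung-expressed oxidative enzymes, out of 30045 genes in the count tables. They comprise 7 cytochromes P450 (Cyp2b1, Cyp2b2, Cyp4b1, Cyp2f4, Cyp2a3, Cyp2s1 and Cyp2e1), the electron donor Por and the epoxide hydrolase Ephx2. No expression value entered the choice of the symbols, although earlier results of these data were known when they were listed. Lung tissue of 48 male Sprague-Dawley rats had been profiled by RNA sequencing in 8 groups of 6 animals, 1 library per animal. Rats breathed either filtered air (0 ppm) or oil vapor (300 ppm) in whole-body chambers for 6 hours a day. The single schedule had 1 exposure day, and the repeated schedule had 16 exposure days, 4 per week over 4 weeks. Animals of each schedule were killed 1 or 28 days after the last exposure, which gave an air and an oil vapor group at each time. The ages of the rats are not given in the sources used here, and a piece of lung was used, so airway and alveolar tissue were sampled together. In such bulk tissue fewer cells of a type and less RNA per cell cannot be told apart.

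Cytochromes P450 are heme enzymes, most of them anchored in the endoplasmic reticulum, that insert an oxygen atom into lipids, steroids, drugs and inhaled chemicals. They draw electrons from NADPH through the flavoprotein Por, and their products can be more soluble, or more reactive, than the parent compound. In the lung these enzymes are concentrated in club cells of the airways and in alveolar type 2 cells, where they are known for activating inhaled toxicants such as naphthalene, and epoxide hydrolases add water to reactive or signaling epoxides that P450s produce.

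Promoter windows are shown for 4 of the genes: for Cyp2b1 and Cyp2b2 because their copies are nearly identical and their reads can be split, and for Cyp2f4 and Cyp2a3 because their levels varied together between animals. The windows were taken from RefSeq on the build GRCr8 and run from 250 bases before to 50 bases after the annotated start. Of the 9 genes, 8 had an entry, all but Ephx2. Capitals mark 8-letter matches to TTGCNNAA, the consensus of the C/EBP family of transcription factors, and matches to TATAAA, the TATA box.
Cyp2b1 promoter, chr1:90645869-90646168, plus strand: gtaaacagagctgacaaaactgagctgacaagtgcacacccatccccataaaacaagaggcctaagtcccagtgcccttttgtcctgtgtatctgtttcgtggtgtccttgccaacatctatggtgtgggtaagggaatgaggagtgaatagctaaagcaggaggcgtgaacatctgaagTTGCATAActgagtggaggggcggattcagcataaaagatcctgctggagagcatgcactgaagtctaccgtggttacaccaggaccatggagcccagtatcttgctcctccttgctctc
Cyp2b2 promoter, chr1:90722031-90722330, plus strand: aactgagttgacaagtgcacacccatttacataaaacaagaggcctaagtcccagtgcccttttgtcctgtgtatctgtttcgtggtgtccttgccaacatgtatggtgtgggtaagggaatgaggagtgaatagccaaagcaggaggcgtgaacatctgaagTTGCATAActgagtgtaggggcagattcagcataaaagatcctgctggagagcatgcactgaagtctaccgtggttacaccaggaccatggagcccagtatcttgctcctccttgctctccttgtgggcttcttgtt
Cyp2a3 promoter, chr1:91299334-91299633, plus strand: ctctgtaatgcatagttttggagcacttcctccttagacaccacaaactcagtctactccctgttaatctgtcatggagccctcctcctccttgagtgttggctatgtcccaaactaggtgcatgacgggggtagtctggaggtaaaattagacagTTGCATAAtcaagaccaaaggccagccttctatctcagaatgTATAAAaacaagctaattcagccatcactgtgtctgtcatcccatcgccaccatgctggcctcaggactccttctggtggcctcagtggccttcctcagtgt
Cyp2f4 promoter, chr1:91543518-91543817, plus strand: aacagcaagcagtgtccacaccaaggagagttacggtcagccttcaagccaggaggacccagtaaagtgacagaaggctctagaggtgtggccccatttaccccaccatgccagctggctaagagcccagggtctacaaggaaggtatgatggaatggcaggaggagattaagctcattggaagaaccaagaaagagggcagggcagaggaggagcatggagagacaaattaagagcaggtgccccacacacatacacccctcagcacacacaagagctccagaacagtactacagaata

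The best local alignment of the Cyp2b1 and Cyp2b2 windows covered 283 bases without a gap, of which 275 were identical (97.2%) and 8 were mismatches. The Cyp2f4 and Cyp2a3 windows shared no such stretch, since their best local alignment covered 11 bases with 10 identical. Searched on both strands, TTGCNNAA was in 4 of the 8 windows, those of Cyp2b1, Cyp2b2, Cyp2a3 and Cyp2e1, against 10.6% of all 33469 promoter windows of that length. TATAAA was in the windows of Cyp2a3 and Cyp2e1 (2 of 8, against 14.2% of all), and TGTTTAC, a forkhead core, was in that of Cyp2b1 (1 of 8, against 3.78% of all). These motifs were chosen after the sequences had been read, and a match of letters is no evidence of a bound factor. Of the 9 genes, 6 lie on chromosome 1 (Cyp2b1, Cyp2b2, Cyp2f4, Cyp2a3, Cyp2s1 and Cyp2e1). Cyp4b1 lies on chromosome 5, Por on 12 and Ephx2 on 15.

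The libraries held 1537183 to 7157844 counts, the second lowest 3602745, and a count of 3, the limit that a count of 0 allows, stood for 0.419 to 1.95 CPM (counts scaled to a fixed library total of 1000000). All 9 genes passed the filter on low counts in every fit. The lung label was checked against markers: the surfactant gene Sftpc of alveolar type 2 cells had group medians of 5415 to 6898 CPM, and the club cell protein Scgb1a1 of 1606 to 2425 CPM. Animal 43, in the repeated oil vapor group at 1 day, stood apart. It had the fewest counts, summed erythroid transcripts (11 genes) of 43869 CPM, where no other animal of the series exceeded 14297 CPM, and Sftpc at 2084 CPM. Some results for that group, not all, are therefore also given without it. Values of animal 32 (single oil vapor, 28 days) follow its title and column, because its description names the table of the other schedule. Log2 counts were compared between animals of equal rank by number in matching groups of the 2 schedules, over 24 pairs. They were centred within groups but not scaled to library totals. Those of the erythroid heme enzyme gene Alas2 correlated (r = 0.997, rho = 0.997, and r = 0.995 without the 2 farthest pairs). Those of the liver albumin gene Alb did so as well (r = 0.963, rho = 0.878, and r = 0.922 without them). The permutation p was 1e-05 for both r values, the smallest that 100000 permutations can give, and the pairing was noticed on these transcripts. Of the 9 phase 1 genes tested the same way, none had an adjusted permutation p below 0.05 for r or rho. The largest values were r = 0.55 for Por (p = 0.154, adjusted p = 0.474) and rho = 0.56 for Cyp2s1 (p = 0.0109, adjusted p = 0.0981). Because unscaled counts carry library depth, these values do not describe CPM levels.

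No difference between oil vapor and air lungs passed the test for any of the 9 enzymes in the 4 comparisons. Values leaned lower at 1 day after a single exposure, where 8 of 9 genes had lower fitted values. The median log2 fold change was -0.40, against 0.01 over all 14820 genes tested, of which 46.7% were lower. After repeated exposure 7 of 9 were lower at 1 day (median -0.05, against 0.02 over all 15005 genes, of which 45.3% were lower). Of these, Cyp2b1 (-0.39) and Cyp4b1 (-0.37) stayed lower when any 1 animal was left out. The values of Cyp2b2, Cyp2f4, Cyp2s1, Cyp2e1 and Por lay between -0.10 and -0.00, and their ranges with 1 animal left out cross 0. At 28 days 5 of 9 were higher after a single exposure (median 0.01) and 8 of 9 after repeated exposure (median 0.20, against 0.01 over all genes), where 52.5% of all genes were higher in each comparison. With edgeR's quasi-likelihood test and Benjamini-Hochberg adjustment over all genes, 0 of 9 were called in each comparison. Over all genes the called share was 0% after a single exposure at 1 and at 28 days, 0.00666% after repeated exposure at 1 day (1 gene), and 0% at 28 days. At an unadjusted p below 0.05 there were 5 of 9 genes after a single exposure at 1 day, all lower, where 10.1% of all genes met that mark and 5.45% met it in the lower direction. There were 0 of 9 at 28 days (8.21% of all genes), 2 of 9 after repeated exposure at 1 day, both lower (9.29%, and 3.49% lower), and 0 of 9 at 28 days (4.86%). DESeq2 and limma-voom each called 1 of 9 after repeated exposure at 1 day, which was Cyp2b1, where they called 90 and 93 of all genes. Both called 0 of 9 in the other 3 comparisons.

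**Figure D1:**
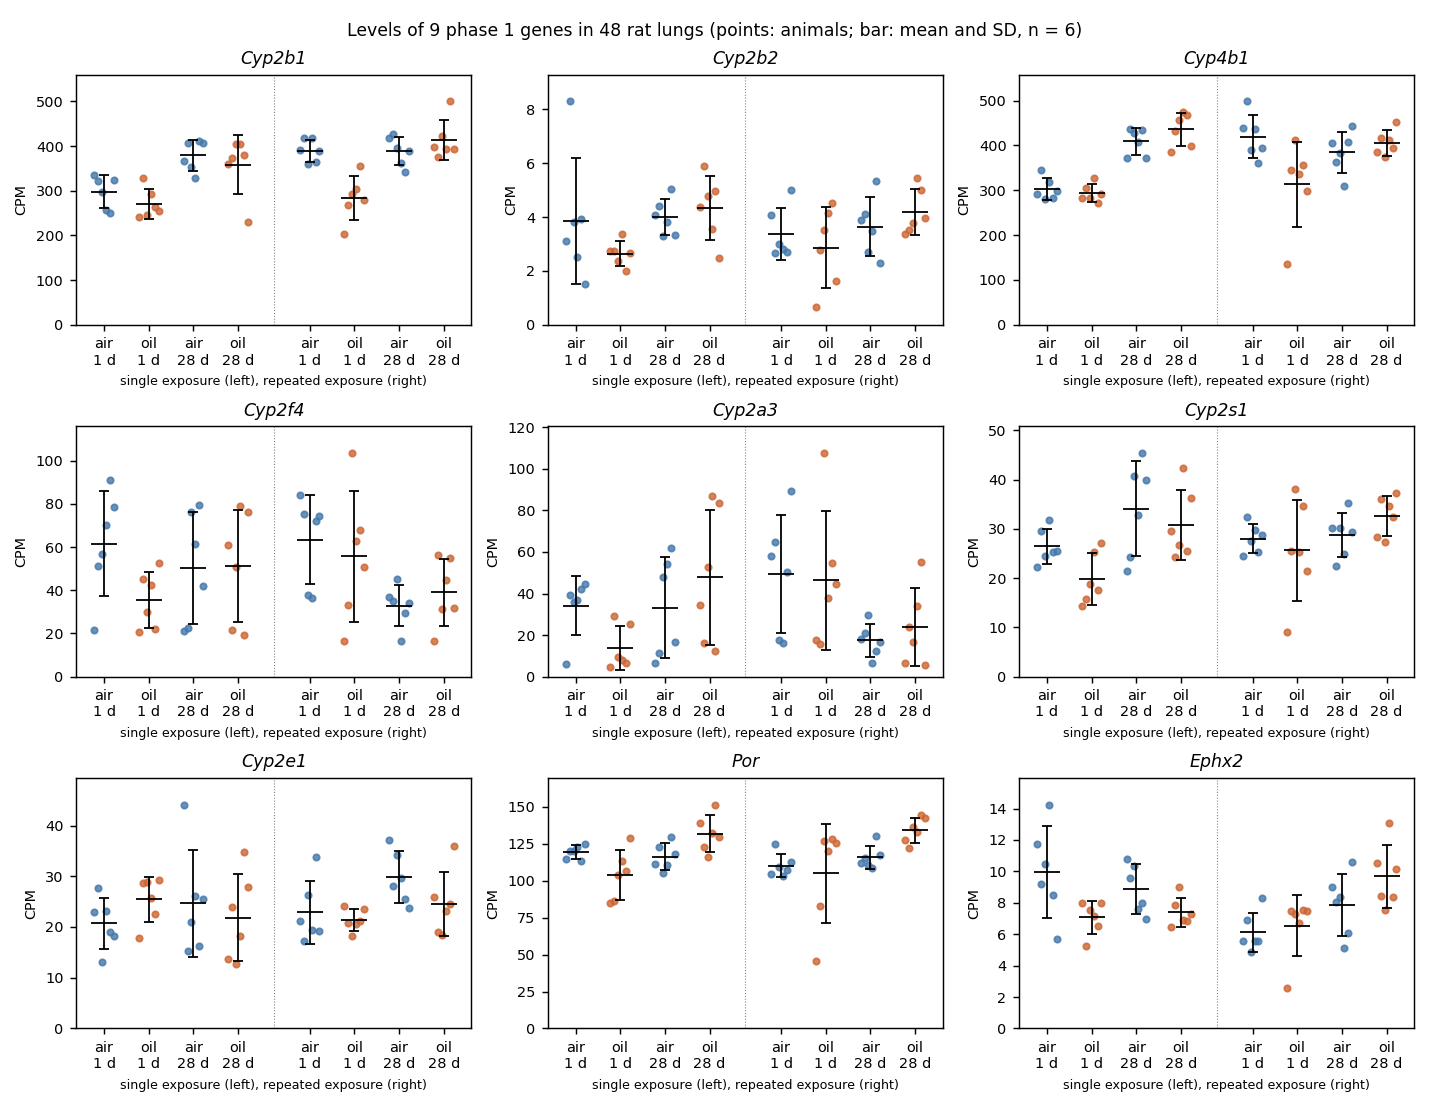
Level of each enzyme in CPM (y axis, from 0) in the 48 lungs by group (x axis), with air in blue and oil vapor in orange; points are animals and bars the mean and SD (n = 6). The Cyp2b1 panel shows the repeated oil vapor animals at 1 day below all 6 air animals of that schedule and time, and the Cyp2a3 panel the widest spread within groups.

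More of the enzymes were called between the 2 times after exposure than between oil vapor and air. In lungs after a single oil vapor exposure 5 of 9 rose from 1 to 28 days, namely Cyp2b1, Cyp4b1, Cyp2a3, Cyp2s1 and Por, and 8 of 9 had higher values (median log2 fold change 0.52, against -0.00 over all genes, of which 49.5% were higher). Markers of other cell types were also called by edgeR in that comparison: 6 of 10 erythroid genes fell (median -2.05), 7 of 12 liver genes fell (median -3.04), 4 of 12 alveolar type 1 genes rose (median 0.11), and 2 of 12 endothelial genes rose and 1 fell (median -0.00). Summed erythroid transcripts ranged from 2517 to 14297 CPM at 1 day and from 1137 to 2641 CPM at 28 days. The part of these other transcripts in the 5 rises was not tested. In air lungs of that schedule only Cyp4b1 was called of the 9. Cyp2b1 missed the call there by edgeR's quasi-likelihood test (0.36, adjusted p = 0.0685), against a value of 0.39 in oil vapor lungs, and DESeq2 called it. After repeated exposure Cyp2b1 rose in the oil vapor lungs, and 0 of 9 were called in air lungs. With edgeR's quasi-likelihood test, the called share of all genes was 9.43% in oil vapor lungs after a single exposure (4.45% higher), 3.25% in the matching air lungs (1.01% higher), 0.34% in oil vapor lungs after repeated exposure (0.247% higher) and 0.327% in the matching air lungs. The shares of the repeated schedule depended on single animals: leaving out 1 animal gave 4 (without animal 89) to 156 genes (without animal 43) in oil vapor lungs, against 51, and 2 (without animal 36 or 38) to 60 in air lungs, against 49. The oil vapor comparison at 1 day gave 0 to 32 (32 without animal 43), against 1. For air lungs over time after repeated exposure 4 of 9 genes had an unadjusted p below 0.05, against 10.7% of all genes, and DESeq2 and limma-voom called 0 of 9. The oil vapor animals at 1 day enter both the oil vapor comparison at 1 day and the time comparison of oil vapor lungs, so these are not independent. The difference between the oil vapor effects at 28 days and 1 day was itself not called for any of the 9 in either schedule. All genes were called at 0% after a single and 0.00666% after repeated exposure, and 2 of 9 had an unadjusted p below 0.05 in each schedule (7.83% and 7.8% of all genes). DESeq2 called 0 of 9 and 1 of 9 (Cyp2b1), and limma-voom 0 of 9 in both. The number of all genes that DESeq2 called for these differences is not given here. Time after exposure and the age of the animals cannot be told apart.

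Cyp2b1, a major P450 of rat lung that oxidizes many drugs and pesticides, had the clearest difference between oil vapor and air. At 1 day after repeated exposure it ranged from 361 to 418 CPM in air lungs (median 389.7) and from 203 to 355 CPM in oil vapor lungs (median 285). The groups did not overlap, every oil vapor value being the lower, which was true of 0.64% of all genes. Its mean was 389.8 ± 24.7 CPM in air and 283 ± 49.9 CPM in oil vapor (SD, n = 6 each). The log2 fold change was -0.39 (SE 0.07), with an adjusted p of 0.0989 by edgeR's quasi-likelihood test, so the call was missed. It was made by DESeq2 (adjusted p = 0.00132) and by limma-voom with sample weights (adjusted p = 0.0245). It was also made by edgeR without animal 43 (-0.38, adjusted p = 0.0289) or without animal 47, the highest of the oil vapor group (-0.44, adjusted p = 0.0281). With only the 12 libraries compared in the fit the adjusted p was 0.355. On the scale of TMM effective library sizes, which adjusts for libraries of other makeup, the groups were also separate, at 355 to 412 CPM in air and 266 to 349 CPM in oil vapor. Summed alveolar type 2 transcripts (13 genes) ranged from 23327 to 31412 CPM in these air lungs. The oil vapor lungs ranged from 13642 to 29339.5 CPM, with animal 43 lowest and animal 44 next at 15969 CPM. Animal 44 also had the lowest leukocyte sum of its group (5980 CPM), and both lists hold Lyz2. It had the highest alveolar type 1 and endothelial sums of that group (6861 and 7314 CPM). Of the 13 alveolar type 2 genes 12 had lower values in oil vapor (median -0.13), with 2 at an unadjusted p below 0.05 (3.49% of all genes were lower at that mark) and none called by edgeR, DESeq2 or limma-voom. Their part in the Cyp2b1 difference was not tested. The Cyp2b1 value was -0.38 without animal 43 and -0.36 without animal 44 (adjusted p = 0.082 by edgeR's quasi-likelihood test).

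In the other 3 oil vapor comparisons Cyp2b1 overlapped between groups. After a single exposure at 1 day it ranged from 251 to 336 CPM in air (median 310) and from 241 to 328 CPM in oil vapor (median 259), with a log2 fold change of -0.13 (SE 0.11). At 28 days it ranged from 329 to 411 CPM in air (median 386) and from 230.3 to 405 CPM in oil vapor (median 376), with a log2 fold change of -0.10 (SE 0.11), and of -0.00 without animal 32. At 28 days after repeated exposure the ranges were 342 to 426 CPM in air (median 392) and 376 to 500.0 CPM in oil vapor (median 396), with a log2 fold change of 0.08 (SE 0.07). In none of these 3 comparisons did the groups separate.

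Over time Cyp2b1 rose in oil vapor lungs of both schedules. By edgeR's quasi-likelihood test it rose by 0.49 on the log2 scale after repeated exposure (SE 0.07, adjusted p = 0.00428), all 6 animals at 28 days lying above all 6 at 1 day. Of all genes, 0.953% were separated in that direction. In that comparison all 13 alveolar type 2 genes had higher values at 28 days (median 0.28), with 0 called by edgeR, 3 by DESeq2 and 4 by limma-voom, and 10 at an unadjusted p below 0.05 (7.01% of all genes were higher at that mark). All 12 alveolar type 1 genes were also higher (median 0.24), with 2 called by edgeR, while 11 of 12 liver and 10 of 10 erythroid genes were lower (medians -3.70 and -3.52), with 1 and 0 called. The part of these cell type transcripts in the Cyp2b1 rise was not tested. The Cyp2b1 call held without animal 43 (0.48, adjusted p = 0.00445) but not with only the 12 libraries compared (adjusted p = 0.124). After a single oil vapor exposure it rose by 0.39 (SE 0.11, adjusted p = 0.0226), with overlap because of animal 32. The call was missed without animal 28 (0.36, adjusted p = 0.0505) and with only the 12 libraries compared (adjusted p = 0.0546). In air lungs the value was 0.36 after a single exposure (SE 0.11, adjusted p = 0.0685) and 0.03 after repeated exposure (SE 0.07, adjusted p = 0.946). The former was called by DESeq2 (adjusted p = 0.0286), with only the 12 libraries compared (0.0301) and with all 48 libraries in the fit (0.0254). The repeated oil vapor group at 1 day was thus the lowest of the 4 groups of its schedule in mean level. The difference between the oil vapor effects at 28 days and 1 day was 0.46 after repeated exposure (SE 0.10, adjusted p = 0.136 by edgeR's quasi-likelihood test and 0.00834 by DESeq2), and 0.03 (SE 0.15) after a single exposure.

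Cyp2b2, which in rat is mainly a liver enzyme and differs from Cyp2b1 by few residues, had low counts. It was at or under the limit of 3 counts in 1 of 48 libraries. It had 900 counts over all 48 libraries, against 86806 for Cyp2b1, 74 for Cyp2b3, 4 for Cyp2b21 and 0 for Cyp2b12 and Cyp2b15. Its share of the Cyp2b1 and Cyp2b2 counts ranged from 0.319 to 2.51% between animals, with a median of 0.997%. Because the copies are nearly identical and how shared reads were counted is not given in the sources used here, the level of Cyp2b2 is uncertain. Group medians ran from 2.70 CPM (single oil vapor, 1 day) to 4.58 CPM (single oil vapor, 28 days), and animal 43 had 1 count. None of the 12 contrasts fitted called Cyp2b2. Summing all Cyp2b symbols before the fit left the Cyp2b1 value after repeated exposure at 1 day at -0.38 (adjusted p = 0.101 by edgeR's quasi-likelihood test).

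Cyp4b1, a lung-rich P450 that hydroxylates fatty acids and activates plant furans and aromatic amines, was the most regular of the genes over time in the single schedule. In air lungs it ranged from 279.7 to 345 CPM at 1 day (median 294) and from 372 to 438 CPM at 28 days (median 418). Oil vapor lungs held 271 to 328 CPM at 1 day (median 287) and 385 to 475 CPM at 28 days (median 444). In both treatments every animal at 28 days lay above every animal at 1 day, as did 0.479% of all genes in air and 2.53% in oil vapor. By edgeR's quasi-likelihood test it rose by 0.45 in air (SE 0.06, adjusted p = 1.04e-04) and by 0.56 in oil vapor (SE 0.06, adjusted p = 3.78e-06) on the log2 scale. The rise was thus found in lungs that had breathed air only as well as in oil vapor lungs. The difference between the oil vapor effects at the 2 times was 0.10 (SE 0.09, adjusted p = 0.813).

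After repeated exposure Cyp4b1 did not show that step. It ranged from 360.2 to 498 CPM in air (median 416) and from 135 to 411 CPM in oil vapor (median 340.2) at 1 day, with animal 43 lowest and the next animal at 298 CPM. At 28 days it ranged from 309 to 442 CPM in air (median 395) and from 374 to 453 CPM in oil vapor (median 402). The oil vapor value at 1 day was -0.37 (SE 0.12, adjusted p = 0.306 by edgeR's quasi-likelihood test), and -0.26 without animal 43 (adjusted p = 0.154). At 28 days it was 0.06 (SE 0.12). The change over time was -0.09 in air (SE 0.12) and 0.34 in oil vapor (SE 0.12, adjusted p = 0.174), which was 0.23 without animal 43. With all 48 libraries in the fit the oil vapor value over time was called (0.33, adjusted p = 0.0454).

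**Figure D2:**
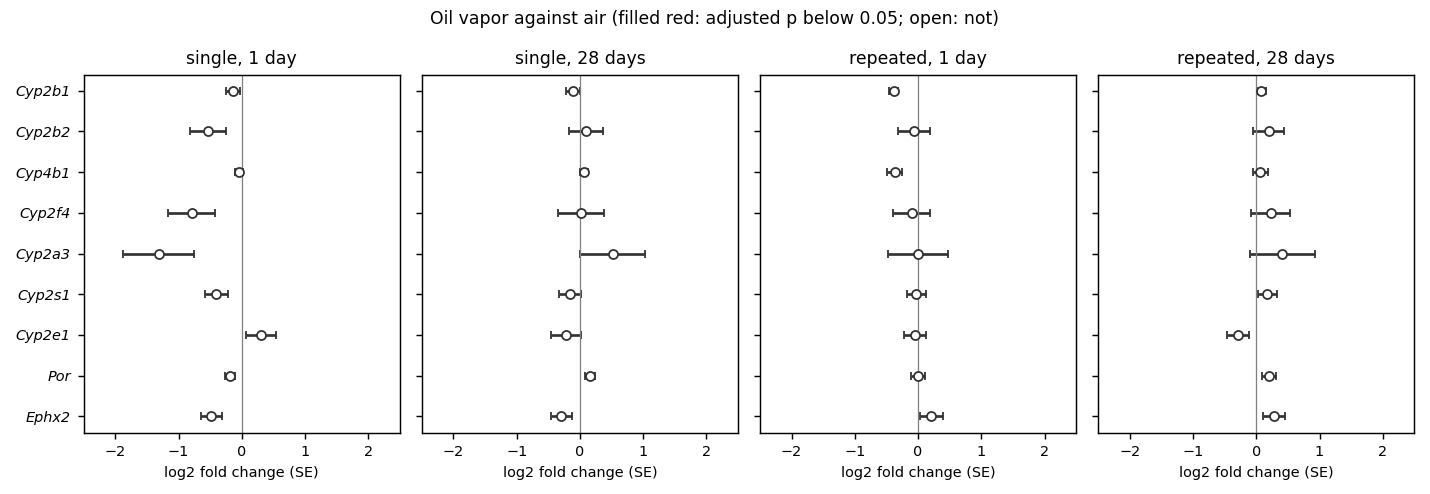
Log2 fold change of oil vapor against air (x axis) for each of the 9 genes (y axis) in the 4 comparisons, with bars for 1 SE; filled red points would pass an adjusted p of 0.05 and open points do not. No point is filled, and the bars are shortest for Cyp2b1, Cyp4b1 and Por and longest for Cyp2a3.

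The air groups of the 2 schedules also differed at 1 day. Cyp2b1 in air lungs reached at most 336 CPM after the single schedule and at least 361 CPM after the repeated one. Cyp4b1 reached at most 345 CPM and at least 360.2 CPM, respectively. The 6 and 6 animals did not overlap for these 2 of the 9 genes, where 3.67% of all 15322 genes were separated, 1.81% with higher levels in the repeated schedule. At 28 days none of the 9 was separate in air lungs (0.64% of all genes) or in oil vapor lungs (0.666%), and none in oil vapor lungs at 1 day (1.25%). No test was made, since the schedule, the count table and the age of the animals cannot be told apart.

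Cyp2f4, the rat P450 that epoxidizes naphthalene in club cells, varied widely between animals of a group, with a coefficient of variation of 29.2 to 54.3%. At 1 day after a single exposure it ranged from 21.4 to 90.9 CPM in air (median 63.3) and from 20.9 to 52.8 CPM in oil vapor (median 36.1). The log2 fold change was -0.79 (SE 0.37, adjusted p = 0.478 by edgeR's quasi-likelihood test), and the ranges overlapped at the low end, where 1 air animal lay far below the other 5. At 28 days the ranges were 21.0 to 79.3 CPM in air (median 51.6) and 19.2 to 78.9 CPM in oil vapor (median 55.8). After repeated exposure they were 36.6 to 84.2 CPM in air (median 73.3) and 16.3 to 103 CPM in oil vapor (median 56.8) at 1 day. At 28 days they were 16.3 to 45.1 CPM in air (median 34.5) and 16.3 to 56.3 CPM in oil vapor (median 38.1). Air and oil vapor animals overlapped over most of their span in these 3 comparisons. The fitted value from 1 to 28 days after repeated exposure was -0.91 in air (SE 0.30, adjusted p = 0.24) and -0.58 in oil vapor (SE 0.30, adjusted p = 0.376), which was -0.34 without animal 45.

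Cyp2a3, a P450 of rat nose and lung that oxidizes coumarin and tobacco nitrosamines, had the widest spread, with a coefficient of variation of 41.5 to 79.2% within groups. After a single exposure at 1 day it ranged from 5.97 to 44.4 CPM in air (median 38.02), where 5 animals lay at 36.1 CPM or more. In oil vapor it ranged from 4.64 to 29.2 CPM (median 8.71), where 4 animals lay under 10 CPM. The log2 fold change was -1.31 (SE 0.56, adjusted p = 0.451 by edgeR's quasi-likelihood test). At 28 days the ranges were 6.69 to 62.1 CPM in air (median 32.3) and 12.6 to 87.1 CPM in oil vapor (median 43.6). The value in oil vapor lungs from 1 to 28 days was thus the largest of the 9, a rise of 1.78 (SE 0.55, adjusted p = 0.041). The call was missed with limma-voom (adjusted p = 0.0536) and when any of animals 5, 7, 13, 14, 24, 28, 29 or 32 was left out (values of 1.53 to 1.86, adjusted p = 0.0512 to 0.101). The difference between the oil vapor effects at the 2 times was 1.83 (SE 0.76, adjusted p = 0.592). After repeated exposure Cyp2a3 ranged from 16.1 to 89.3 CPM in air (median 54.2) and from 15.5 to 108 CPM in oil vapor (median 41.3) at 1 day. At 28 days it ranged from 6.53 to 29.7 CPM (median 17.4) and from 5.79 to 55.3 CPM (median 20.2). The fitted value over time was negative in this schedule, -1.45 in air (SE 0.51, adjusted p = 0.28) and -1.04 in oil vapor (SE 0.50, adjusted p = 0.327), and neither was called. Without animal 45 the oil vapor value was -0.63.

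Cyp2s1, a P450 of airway and other epithelia, was lower in oil vapor in median at both times after a single exposure. Its range after a single exposure was from 22.3 to 31.9 CPM in air (median 25.3) and from 14.3 to 27.1 CPM in oil vapor (median 18.2) at 1 day, and from 21.5 to 45.4 CPM (median 36.4) and 24.3 to 42.3 CPM (median 28.2) at 28 days. The oil vapor value at 1 day was -0.40 (SE 0.18, adjusted p = 0.471 by edgeR's quasi-likelihood test). It rose by 0.61 from 1 to 28 days in oil vapor lungs (SE 0.18, adjusted p = 0.0298). The call was missed when any of animals 5, 6, 7, 14, 29 or 32 was left out (0.51 to 0.60, adjusted p = 0.0565 to 0.0816). After repeated exposure the group medians lay between 25.4 and 33.5 CPM and no contrast was called. Animal 43 was the lowest of all 48, at 9.11 CPM.

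**Figure D3:**
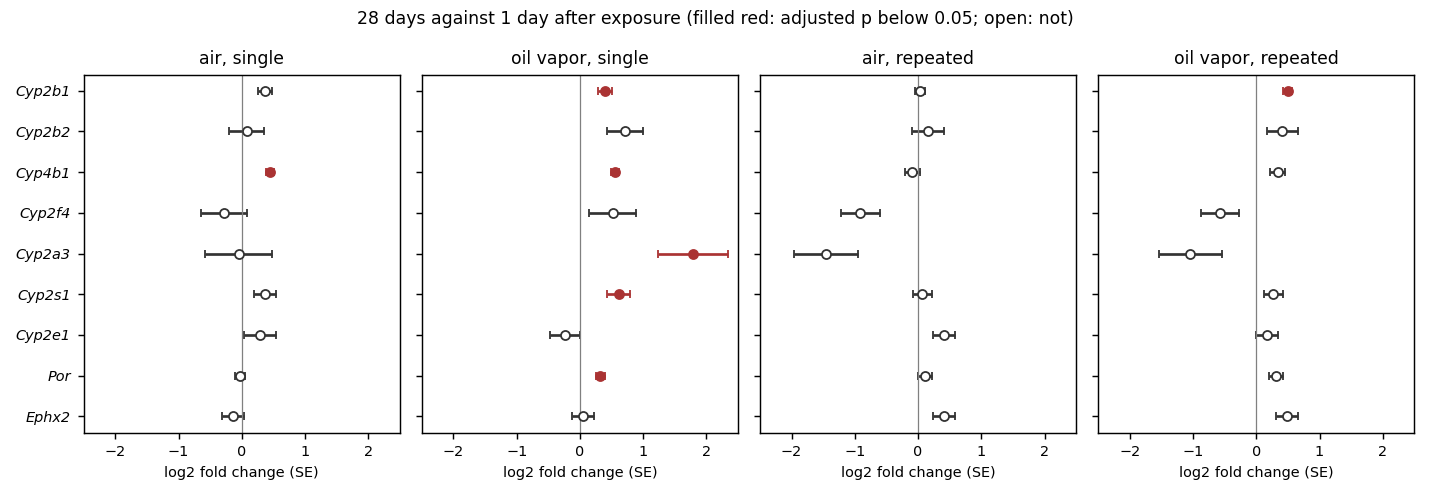
Log2 fold change from 1 to 28 days after exposure (x axis) for each of the 9 genes (y axis), by treatment and schedule, with bars for 1 SE; filled red points pass an adjusted p of 0.05. In oil vapor lungs after a single exposure 5 points are filled, in the matching air lungs Cyp4b1 alone, and after repeated exposure Cyp2b1 in oil vapor lungs.

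Transcripts of ciliated and club cells moved with Cyp2f4, Cyp2a3 and Cyp2s1. Relations to marker sums were computed on log2 CPM centred within each of the 8 groups, and were permuted within groups. Over the 48 libraries, the summed level of 16 ciliated cell transcripts correlated with Cyp2f4 (Pearson r = 0.84, Spearman rho = 0.89), Cyp2a3 (r = 0.71, rho = 0.77) and Cyp2s1 (r = 0.85, rho = 0.73). Without the 2 libraries farthest from the median the r values were 0.83, 0.75 and 0.75. Within the 8 groups r ran from 0.54 to 0.97 for Cyp2f4, from 0.63 to 0.89 for Cyp2a3 and from -0.04 to 0.98 for Cyp2s1. The sum of 15 club cell transcripts gave r = 0.78, 0.65 and 0.87 for the same 3 genes (rho = 0.77, 0.66 and 0.77, and r = 0.74, 0.66 and 0.79 without the 2 farthest libraries). Each of these 6 relations had a permutation p of 1e-05 for r and for rho, the smallest that 100000 permutations can give, and an adjusted p of 6e-05 over the 36 relations computed. For all relations to marker sums the permutations treat the 48 libraries as independent, which was not tested. Alas2 and Alb were correlated between libraries of the 2 schedules, as given above.

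The airway sums in the same groups were as follows. At 1 day after a single exposure the ciliated sum ranged from 823 to 1104 CPM in air (median 1023) and from 588 to 936 CPM in oil vapor (median 808). Of 15 ciliated genes tested 14 had lower values in oil vapor (median -0.48), and of 13 club cell genes 9 (median -0.37). None was called by edgeR, DESeq2 or limma-voom, and 9 and 6 had an unadjusted p below 0.05, all lower, as did 5.45% of all genes. The club sum ranged from 3211 to 4118 CPM in air and from 2140 to 3360 CPM in oil vapor. From 1 to 28 days in oil vapor lungs of that schedule all 15 ciliated genes had higher values (median 0.37), 5 at an unadjusted p below 0.05 (11.5% of all genes were higher at that mark) and none called by the same tools, beside the rises of Cyp2a3 and Cyp2s1. Of the 13 club cell genes 7 were higher there (median 0.04), with 1 called in each direction. After repeated exposure 13 of 15 ciliated genes were lower at 28 days in air lungs (median -0.22) and 12 of 15 in oil vapor lungs (median -0.17), with 1 of them at an unadjusted p below 0.05 in each and none called by these tools, beside the negative values of Cyp2f4 and Cyp2a3. All 16 ciliated and 15 club transcripts found in the tables were detected. The part of airway content in the values of Cyp2f4, Cyp2a3 and Cyp2s1 was not tested.

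**Figure D4:**
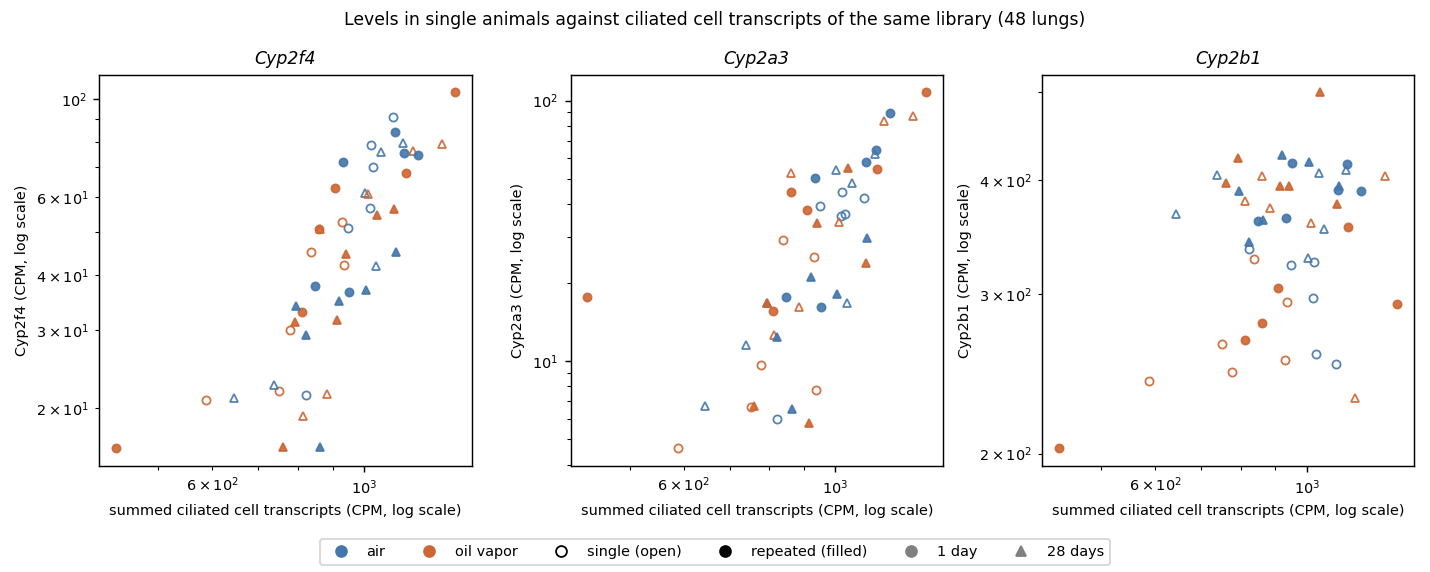
Level of Cyp2f4, Cyp2a3 and Cyp2b1 (y axes, CPM, log scale) against the summed ciliated cell transcripts of the same library (x axis, CPM, log scale) in 48 lungs; color gives the treatment, fill the schedule and shape the time. After centring within groups on the log2 scale, r with the ciliated sum was 0.84 for Cyp2f4, 0.71 for Cyp2a3 and 0.28 for Cyp2b1. The points shown are not centred.

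Cyp2b1 and Cyp4b1 followed airway transcripts less closely. For the ciliated sum r was 0.28 with Cyp2b1 (rho = 0.18, permutation p = 0.141, adjusted p = 0.23, and r = 0.08 without the 2 farthest libraries). With Cyp4b1 it was 0.62 (rho = 0.28, permutation p = 0.00564, adjusted p = 0.0226), a relation that rested on those 2 libraries, since r was 0.23 without them. The sum of 13 alveolar type 2 transcripts gave r = 0.50 with Cyp2b1 (rho = 0.40, permutation p = 0.00154, adjusted p = 0.00792), and r = 0.39 without the 2 farthest. By schedule that r was 0.37 and 0.66 in the single and repeated libraries. With Por it gave r = 0.67 (rho = 0.29, permutation p = 0.0111 for r and 0.086 for rho, adjusted p = 0.0334 and 0.221), and 0.42 without the 2 farthest. By schedule the Por r was 0.24 and 0.78 in the single and repeated libraries, and within groups it ran from -0.88 to 0.93. Por had a similar r with the ciliated sum (0.61, permutation p = 0.00662, adjusted p = 0.0238) and the club sum (0.60, permutation p = 0.00766, adjusted p = 0.0251). Those r values were 0.29 and 0.28 without the 2 farthest. The type 2 and leukocyte lists share Lyz2. Animals 3 and 1 (single air, 1 day) were lowest and highest of their group in both sums. So were animals 7 and 16 (single oil vapor, 1 day), 36 and 34 (repeated air, 1 day), and 82 and 83 (repeated air, 28 days). In the other groups the extremes were not all the same. The part of leukocyte content in these relations was not tested.

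Genes of the most similar pattern were named by Pearson r over the 48 libraries, on log2 CPM centred within groups, among 13055 genes that have more than a provisional symbol. For Cyp2f4 they were Cyp2a3 (0.90), the dynein heavy chain Dnah5 (0.89) and the secreted airway protein Bpifb1 (0.89), and for Cyp2a3 they were Cyp2f4, Bpifb1 (0.87) and the dynein chain Dnai2 (0.85). For Cyp2s1 they were Cfap46 (0.86), Vwa3a (0.82) and Ccdc108 (0.81). Dnah5, Dnai2 and Bpifb1 also belong to the marker lists above. For Cyp4b1 they were Prob1 (0.79), Ttc7a (0.78) and Trio (0.75), and for Por Setdb1 (0.79), Cacna2d2 (0.77) and Lgi3 (0.77). Without animal 43 these 6 r values fell to between 0.52 and 0.68. For Cyp2b1 the highest was Lrrc1 at 0.51, followed by Dhx58 (0.50) and Oas2 (0.49), for Cyp2b2 Rnd1 (0.60), for Cyp2e1 Fgf7 (0.63) and for Ephx2 Ube4b (0.66). Between the 9 genes themselves, r was 0.90 for Cyp2f4 and Cyp2a3 and 0.64 for Cyp2f4 and Cyp2s1. These libraries share depth and tissue makeup, so the values are descriptions.

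Cyp2e1, an enzyme of ethanol and small solvents that is most abundant in liver, was the 1 gene of 9 with a higher value after a single exposure at 1 day. It ranged from 13.1 to 27.7 CPM in air (median 21.0) and from 17.9 to 29.2 CPM in oil vapor (median 27.2), with a log2 fold change of 0.30 (SE 0.24). In the other comparisons the value was between -0.29 and -0.05, and no contrast was called. Its highest level, 44.03 CPM, was in animal 17 of the air group at 28 days after a single exposure, and the highest air animal at 28 days after repeated exposure was animal 82 at 37.2 CPM. Those animals also had the highest liver sums of their groups (18 genes), 1295 and 1527 CPM, against group medians of 293 and 318 CPM. Of 12 liver genes tested, 12 had higher values in oil vapor after a single exposure at 1 day and lower values at 28 days (medians 2.05 and -2.80). edgeR and limma-voom called none and DESeq2 0 and 3, and 9 had an unadjusted p below 0.05 at each time (10.1% and 8.21% of all genes). After repeated exposure 11 of 12 were higher at 1 day and 12 of 12 lower at 28 days (medians 2.84 and -3.04). edgeR and limma-voom called none of these and DESeq2 6 and 1, with 11 and 9 at an unadjusted p below 0.05 (9.29% and 4.86% of all genes). Over 48 libraries the liver sum gave r = 0.32 with Cyp2e1 (rho = 0.16, permutation p = 0.0155 for r and 0.226 for rho, adjusted p = 0.043 and 0.414), and r = 0.11 without the 2 farthest libraries. Without animal 17 the oil vapor value at 28 days after a single exposure turned from -0.22 to 0.04. The part of liver transcripts in the Cyp2e1 values was not tested.

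Por, the reductase that hands NADPH electrons to microsomal P450s, was among the steadiest of the genes, with a coefficient of variation of 3.79 to 32.2% within groups, the highest in the group of animal 43. After a single exposure it ranged from 113 to 125 CPM in air (median 120.2) and from 84.8 to 129 CPM in oil vapor (median 105) at 1 day, with a log2 fold change of -0.19 (SE 0.08, adjusted p = 0.446 by edgeR's quasi-likelihood test). At 28 days it ranged from 105 to 129 CPM in air (median 115) and from 116 to 151 CPM in oil vapor (median 131), with a value of 0.16 (SE 0.08, adjusted p = 0.622). The difference between these effects was 0.35 (SE 0.11, adjusted p = 0.494). Por rose by 0.32 from 1 to 28 days in oil vapor lungs (SE 0.08, adjusted p = 0.00897), and leaving out any 1 of the 12 animals kept the call (adjusted p up to 0.0288). In air lungs of the schedule the value was -0.02 (SE 0.08). After repeated exposure the oil vapor value was -0.00 at 1 day (SE 0.11), and 0.09 without animal 43, which was lowest at 45.5 CPM. At 28 days Por ranged from 109 to 129.9 CPM in air (median 114) and from 122 to 144 CPM in oil vapor (median 135), with a value of 0.20 (SE 0.11, adjusted p = 0.98).

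Ephx2, the soluble epoxide hydrolase that converts fatty acid epoxides to diols, had the smallest unadjusted p of the 9 after a single exposure at 1 day. It ranged from 5.69 to 14.2 CPM in air (median 9.82) and from 5.24 to 8.01 CPM in oil vapor (median 7.34), with a log2 fold change of -0.48 (SE 0.17, adjusted p = 0.372 by edgeR's quasi-likelihood test). At 28 days it ranged from 6.94 to 10.8 CPM in air and from 6.47 to 9.002 CPM in oil vapor (-0.29, SE 0.17). After repeated exposure the signs were opposite, with values of 0.21 at 1 day (SE 0.18) and 0.28 at 28 days (SE 0.17). The difference between the oil vapor effects of the 2 schedules was 0.69 at 1 day (SE 0.25, adjusted p = 0.307) and 0.57 at 28 days (SE 0.24, adjusted p = 0.927). Without animal 43 the difference at 1 day was 0.74. The fit treats libraries of the 2 schedules as independent, which was not tested, and Alas2 and Alb were correlated between them as given above. Of the 9 genes, 0 were called for that difference at 1 or at 28 days by edgeR, DESeq2 or limma-voom, where 0.0457% and 0% of all genes were called by edgeR. At an unadjusted p below 0.05 there were 2 of 9 and 1 of 9 (9.74% and 5.2% of all genes). In oil vapor lungs after repeated exposure Ephx2 lay between 2.60 and 7.57 CPM at 1 day and between 7.57 and 13.1 CPM at 28 days, with a log2 fold change of 0.48 (SE 0.17, adjusted p = 0.186). The ranges met without overlapping (0.953% of all genes were separated this way), and they overlapped on the scale of TMM effective library sizes, with a highest value of 7.51 CPM at 1 day and a lowest of 7.49 CPM at 28 days.

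The order of the 8 group means was not resolved for most of the genes. Of 63 pairs of neighbors in these orders, 1 was farther apart than the larger of its 2 SDs, that of Por between single oil vapor lungs at 28 days (132 ± 12.4 CPM) and single air lungs at 1 day (119 ± 4.53 CPM). For Cyp2b1 the order ran from 414 ± 44.6 CPM (repeated oil vapor, 28 days) down to 283 ± 49.9 CPM (repeated oil vapor, 1 day) and 271 ± 33.5 CPM (single oil vapor, 1 day). The lowest 3 groups for Cyp2b1 were the oil vapor groups at 1 day and the single air group at 1 day (298 ± 36.4 CPM). Levels of different genes are not set against each other, because transcript lengths were not used here.

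Other phase 1 enzymes and their electron donors were not called between oil vapor and air either. Of 115 listed, 113 were in the tables and 70 were tested in each schedule. With edgeR's quasi-likelihood test 0 of 70 were called in any of the 4 oil vapor comparisons, as with DESeq2 and limma-voom. An unadjusted p below 0.05 was found for 4 higher and 1 lower after a single exposure at 1 day and likewise at 28 days, and for 3 higher and 9 lower after repeated exposure at 1 day and 2 higher and 4 lower at 28 days. The shares of all genes at that mark were 10.1, 8.21, 9.29 and 4.86%. Among those of smallest p after a single exposure was Aldh7a1, an aldehyde dehydrogenase, at 0.29 (SE 0.07) at 1 day and 0.27 (SE 0.07) at 28 days. After repeated exposure the smallest p values belonged to Pgrmc1, a heme-binding P450 partner, at -0.23 (SE 0.06) and the lactonase Pon3 at -0.34 (SE 0.10) at 1 day, and to Aldh9a1 at -0.30 (SE 0.10) and the monoamine oxidase Maoa at -0.21 (SE 0.08) at 28 days.

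Some of that list changed with time after a single exposure. Of the 70, 8 rose and 6 fell in oil vapor lungs, where 9.43% of all genes were called, and 2 rose and 2 fell in air lungs, where 3.25% were. The flavin monooxygenase genes Fmo5, Fmo2 and Fmo1 rose in oil vapor lungs, by 0.82 (SE 0.23), 0.71 (SE 0.16) and 0.58 (SE 0.10, adjusted p = 3.57e-04 by edgeR's quasi-likelihood test). Fmo1 also rose in air lungs, by 0.49 (SE 0.10, adjusted p = 0.00438). Cyp1a1, the P450 induced through the aryl hydrocarbon receptor, fell 4.57-fold in air (adjusted p = 5.17e-04) and 2.54-fold in oil vapor lungs (adjusted p = 0.00817). Akr1c14, an aldo-keto reductase, fell by 0.31 (SE 0.07) and 0.30 (SE 0.07). After repeated exposure edgeR called 1 of 70 in each treatment (0.327% of all genes in air and 0.34% in oil vapor lungs), and DESeq2 and limma-voom each called 4 in air and 5 in oil vapor lungs. Cyp1b1 fell by 0.78 in air lungs (SE 0.17, adjusted p = 0.0396), and the cytochrome b5 reductase Cyb5r3 rose by 0.35 in oil vapor lungs (SE 0.07, adjusted p = 0.04). Of 18 regulators of P450 genes 16 were tested. Among these, only the aryl hydrocarbon receptor gene Ahr was called in any of the 12 contrasts, falling by 0.39 over time in oil vapor lungs after a single exposure (SE 0.07, adjusted p = 9.38e-04), where 9.43% of all genes were called.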

How the data were processed

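Stranded total RNA libraries were made from a piece of lung of each of 48 rats, per the labels' protocols. The submitters' processing notes name the tools HTSeq 0.6.1, SAMtools 1.8, HISAT2 2.1.0, Trimmomatic 0.35 and bcl2fastq 2.19 and the rat build Rnor_6.0. The annotation and strand option used with HTSeq are not given in the sources used here. Whether reads of overlapping and antisense genes were told apart is therefore not known. The authors deposited raw counts per gene symbol, 1 table per schedule, with the same 30045 symbols in each (5463 without a count in any library), and every column was matched to a sample by name.

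Counts were tested with edgeR 4.0.16 in R 4.3.3 (glmQLFit and glmQLFTest, two-sided, TMM scaling, filterByExpr by group). Each schedule had 1 model of its 4 groups and 24 libraries, and differences between schedules used a model of all 48. P-values were adjusted by the Benjamini-Hochberg method over all genes tested, with a threshold of 0.05. Standard errors were computed from the fold change and its F statistic and are approximate. CPM were computed from library totals. The limit from a count of 3 covers counting error only, because reads of 1 PCR product are not separate molecules. Relations of genes to marker sums, and between rank pairs of the schedules, used two-sided permutation tests within groups in Python with scipy 1.17.1. The alternatives tried were RLE scaling, keeping all genes, DESeq2 1.42.0, limma-voom (limma 3.58.1), fits on the 12 libraries compared or on all 48, summed Cyp2b symbols, and leaving out each animal in turn. The edgeR test was tried on simulated counts for oil vapor against air after repeated exposure at 1 day. The other statistics were not tried on simulated counts. Replicates are separate animals by their labels. The 9 genes and all lists were chosen with earlier results of these data known. The text names all 9 genes, genes of most similar pattern (up to 3 for each), and from the phase 1 and regulator lists called genes or, where none was called, the 2 of smallest p, except 1 gene that is not reported here. Promoter windows are from RefSeq on GRCr8.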

Additional observations from a re-analysis of the deposited data

Results flagged for a closer look

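Of 72 combinations of gene and group tested for a lone extreme animal by Dixon's criterion, 5 stood out. Chance alone gives about 1 in 20 of such combinations, so 5 of 72 was near that share. The combinations are not independent, because the same animals enter for each gene. Cyp2b1 was 230.3 CPM in animal 32 (single oil vapor, 28 days), the lowest of its group, where the next animal had 359 CPM and the highest 405 CPM. Cyp2b2 was 8.30 CPM in animal 2 (single air, 1 day), the highest of its group, and the next had 3.92 CPM. Cyp2a3 was 5.97 CPM in animal 1 of that group, the lowest, against 36.1 CPM in the next, and that animal also had the lowest summed ciliated transcripts there (823 CPM). Cyp2e1 was 44.03 CPM in animal 17 (single air, 28 days), the highest of its group, against 26.0 CPM in the next, and that animal had the highest liver sum (1295 CPM). Ephx2 was 2.60 CPM in animal 43 (repeated oil vapor, 1 day), the lowest of its group and of all 48, against 6.74 CPM in the next, and it rested on 4 counts in the shallowest library.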

How the results depend on the processing

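The fits were not paired, because the groups share no animal numbers. The rank pairs of the 2 schedules rest on number order alone and were not used in any fit. Among the recomputed fold changes of the 9 genes, 1409 kept their direction and side of the threshold, 58 changed sign, 18 lost and 11 gained a call. The number of the 9 genes called differed in few settings. After repeated exposure at 1 day, where edgeR called 0 of 9, DESeq2 and limma-voom each called 1, and leaving out 1 animal gave 0 to 1 (1 without animal 43 or animal 47). Over time in air lungs of the single schedule the count was 2 with DESeq2, with only the 12 libraries compared and with all 48 in the fit, against 1. For oil vapor lungs of the repeated schedule it was 0 with only 12 libraries and 2 with all 48, against 1. For the difference between oil vapor effects at the 2 times after repeated exposure DESeq2 called 1, against 0. Over time in oil vapor lungs of the single schedule leaving out 1 animal gave 3 to 5 calls, with 3 without any of animals 5, 7, 14, 28, 29 or 32. Signs turned mostly for values near 0, and the cause was not tested. For oil vapor after repeated exposure at 1 day, Por was -0.00 as reported and 0.000296 with RLE scaling, 0.015 with DESeq2, 0.15 with limma-voom and 0.0070 with all 48 libraries, and Cyp2a3 was -0.0023 with all genes kept, -0.055 with DESeq2 and -0.016 with only 12 libraries. There limma-voom gave 0.049 for Cyp2b2, 0.21 for Cyp2f4 and 0.047 for Cyp2s1. After a single exposure at 28 days Cyp2f4 was -0.010 with DESeq2, Cyp2b2 was -0.014 with limma-voom, and the summed Cyp2b symbols, set in place of Cyp2b2, gave -0.10. That sum gave -0.24 for the difference between schedules at 1 day. With limma-voom the difference between the oil vapor effects at the 2 times was -0.017 for Cyp2b1 after a single exposure, and after repeated exposure -0.074 for Cyp2f4, -0.52 for Cyp2a3 and -0.038 for Ephx2. The difference between schedules at 28 days was 0.018 for Cyp4b1 and -0.018 for Cyp2f4. Leaving out 1 animal gave ranges that cross 0. For oil vapor after repeated exposure at 1 day these were -0.41 to 0.26 for Cyp2a3, -0.21 to 0.083 for Cyp2b2, -0.14 to 0.099 for Cyp2e1, -0.34 to 0.023 for Cyp2f4, -0.15 to 0.053 for Cyp2s1 and -0.054 to 0.091 for Por, and at 28 days -0.042 to 0.62 for Cyp2a3. After a single exposure they were -0.071 to 0.0027 for Cyp4b1 at 1 day, and -0.026 to 0.22 for Cyp2b2, -0.40 to 0.042 for Cyp2e1 and -0.16 to 0.18 for Cyp2f4 at 28 days. Over time in the single schedule they were -0.31 to 0.18 for Cyp2a3, -0.092 to 0.45 for Cyp2b2 and -0.047 to 0.0088 for Por in air lungs, and -0.013 to 0.099 for Ephx2 in oil vapor lungs. Counts over all genes varied more with the tool: after repeated exposure at 1 day 1 gene was called by edgeR, 90 by DESeq2 and 93 by limma-voom, and in oil vapor lungs of that schedule over time 51, 311 and 232. With only the 12 libraries compared, oil vapor effects at 28 days gave 16 calls after a single and 137 after repeated exposure, against 0 and 0, and DESeq2 gave 24 and 21. At 1 day after a single exposure DESeq2 gave 17, against 0. Over time in air lungs of the repeated schedule 49 genes were called by edgeR, 191 by DESeq2 and 244 by limma-voom. The fits without animal 43 for differences between schedules and times were chosen after seeing the data, and gave 25 calls at 1 day between schedules, against 7. Depth limits Cyp2b2 and Ephx2 most: they had at most 38 and 79 counts in any library.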
